A study of Mus musculus with 8 samples.

Results

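The 7 genes for CDK inhibitors (Cdkn1a, Cdkn1b, Cdkn1c, Cdkn2a, Cdkn2b, Cdkn2c and Cdkn2d) and the 3 genes for D-type cyclins (Ccnd1, Ccnd2 and Ccnd3) were followed in cultured FRCs. They were chosen by gene symbol with no cut on their values, though with earlier results of these data known, and were 10 of the 55367 genes counted. Of these, 9 passed the filter on low counts and were tested, and Cdkn1c did not. D-type cyclins bind and activate CDK4 and CDK6, which phosphorylate the retinoblastoma protein and thereby release E2F factors that drive entry into S phase. INK4 inhibitors (the Cdkn2 genes) bind CDK4 and CDK6 themselves, whereas CIP/KIP inhibitors (the Cdkn1 genes) bind cyclin-CDK complexes and are best known for blocking CDK2. Several of these proteins are also controlled by degradation, so mRNA is only part of their control.

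Poly(A) RNA was sequenced from an FRC cell line, made from nodes of C57BL/6 mice with the genotype p53 ER/ER and characterised by Pdpn and VCAM-1 without CD45 or CD31, after 4 days under 4 conditions with 2 libraries each. The vehicle group received RPMI with an equal amount of water, and the LA group received RPMI with 15 mM lactic acid. The CCM group received RPMI conditioned by FRCs, and the TCM group RPMI that B16.F10 melanoma cells had conditioned, and all media held 2% FBS. All groups therefore shared the same cell line and its p53 ER allele, whose state under these conditions is not described in the sources used here, and a single line limits how far the values extend to other FRCs.

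Total counts per library ran from 8232889 to 14107964, where 3 counts equal 0.213 to 0.364 CPM (counts scaled to library size). Of 11 FRC and fibroblast markers, Pdpn (114 to 187 CPM), Vcam1, Pdgfra, Pdgfrb, Col1a1 and Ltbr had at least 46.6 CPM in each library, and Col1a2 had 6.37 to 15.2 CPM. Il7 was low, at 0.559 to 1.83 CPM, and Thy1 had 1 to 16 counts, under 3 counts in 3 libraries. Ccl21a was at 0 and Ccl19 had 1 count in all, so these chemokines of lymph node FRCs were below detection at this depth. Of the leukocyte markers Ptprc, Cd3e and Itgam were at 0 in each library and Lyz2 had 8.75 to 22.4 CPM, while the 5 endothelial markers summed to 1.18 to 2.18 CPM. The 7 melanoma markers summed to 1.82 to 3.67 CPM, with Tyr at 0 everywhere and Tyrp1 found only in TCM, at 0.632 and 0.327 CPM, as was Dct, with 1 count in each TCM library. Fewer cells with a transcript and less of it per cell cannot be told apart in such bulk libraries.

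Promoter sequence is shown for the 3 members that passed the test in some comparison with TCM: Cdkn1a (p21), Cdkn2b (p15) and Ccnd3 (cyclin D3). The windows come from RefSeq on GRCm38.p6, which held 11 windows for 7 of the members and none for Ccnd1, Ccnd2 and Cdkn1c. In the 250 bases before each start, both strands were searched for a p53 element, a CRE (TGACGTCA), an AP-1 site (TGANTCA), an E2F site (TTTCGCGC, TTTGGCGC or TTTCCCGC), and for a GC box, a CCAAT box, a TATA box and a FOXO site. The p53 element was defined as 2 adjacent p53 half-sites with at most 1 mismatch in 20 bases. A match describes the letters and shows neither binding nor a cause.

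The upstream start of Cdkn1a (chr17:29090869-29090978, plus strand, bases -110 to -1) is shown with its p53 element in capitals, and the downstream start (chr17:29093659-29093768, plus strand) with its GC boxes.
Cdkn1a upstream: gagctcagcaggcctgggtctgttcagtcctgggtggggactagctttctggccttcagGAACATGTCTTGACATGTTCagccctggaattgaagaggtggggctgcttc
Cdkn1a downstream: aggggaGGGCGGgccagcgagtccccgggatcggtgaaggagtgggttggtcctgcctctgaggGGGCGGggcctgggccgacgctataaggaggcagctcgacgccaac

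The Cdkn1a element lay at bases -51 to -32 (chr17:29090928-29090947) with 1 mismatch. It was the only p53 element among the 11 member windows, and 0.0761% of all 32851 windows held one. Of the 15 listed p53 targets that had a window, 1 (Ccng1) held such an element.

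The Cdkn2b window (chr4:89311033-89311142, minus strand, bases -110 to -1) is shown with its CRE in capitals, and the downstream start of Ccnd3 (chr17:47593317-47593466, plus strand, bases -150 to -1) with its CCAAT and GC boxes.
Cdkn2b: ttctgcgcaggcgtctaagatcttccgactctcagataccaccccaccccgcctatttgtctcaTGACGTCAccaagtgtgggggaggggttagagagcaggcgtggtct
Ccnd3: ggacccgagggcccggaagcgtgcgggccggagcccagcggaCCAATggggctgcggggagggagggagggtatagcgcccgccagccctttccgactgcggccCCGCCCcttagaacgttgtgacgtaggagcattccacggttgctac

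The CRE was found in 1.55% of all windows and, among the member windows, only in that of Cdkn2b. An E2F site was found in 1.53% of windows and, among members, only at the upstream start of Cdkn2a, from which p19Arf is transcribed. A FOXO site (GTAAACA) stood only at the upstream start of Ccnd3 (3.17% of windows), and no member window held an AP-1 site (6.75%) or a TATA box (TATAAA, 12.4%). GC boxes (GGGCGG) were in 7 of the 11 member windows (32.7% of all) and CCAAT boxes in 3 (33.8% of all).

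The comparison of TCM with CCM sets medium conditioned by B16.F10 cells against medium conditioned by FRCs, so a difference can stem from either medium. LA with vehicle asks what lactic acid does alone. Calls needed both a log2 fold change (FC) beyond 0.39 and an adjusted P value under 0.05 from edgeR's quasi-likelihood test. Between TCM and CCM, 2 of the 9 tested members were called, where 19.1% of all genes were. Cdkn1a was lower (10.2% of all genes were called lower) and Cdkn2b was higher (8.83%). Over all genes 1072 were higher and 1242 lower, and without TMM scaling 651 were higher and 2041 lower, with Cdkn1a and Cdkn2c, both lower, as the 2 members called. Between LA and vehicle no member was called, where 2.55% of all genes were. At an unadjusted edgeR P value under 0.05, a looser cut whose share of all genes is not given here, 3 members passed. These were Cdkn1a, Cdkn2a and Cdkn2b, all lower with LA. DESeq2 called 1 of them, Cdkn1a, and the alternative fits called between 0 and 3 of them, all lower. All 3 were called in the fits without TCM library 1 or 2, with no filter, and with only the libraries compared, with or without a replicate block. The block with only the libraries compared was added after the data were seen. Over all genes, DESeq2 called 323, no filter 656, only the libraries compared 454 and that block 1117, against 310 in the main fit. Both counts of members called in the main fit were near the share of all genes.

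**Figure D1:**
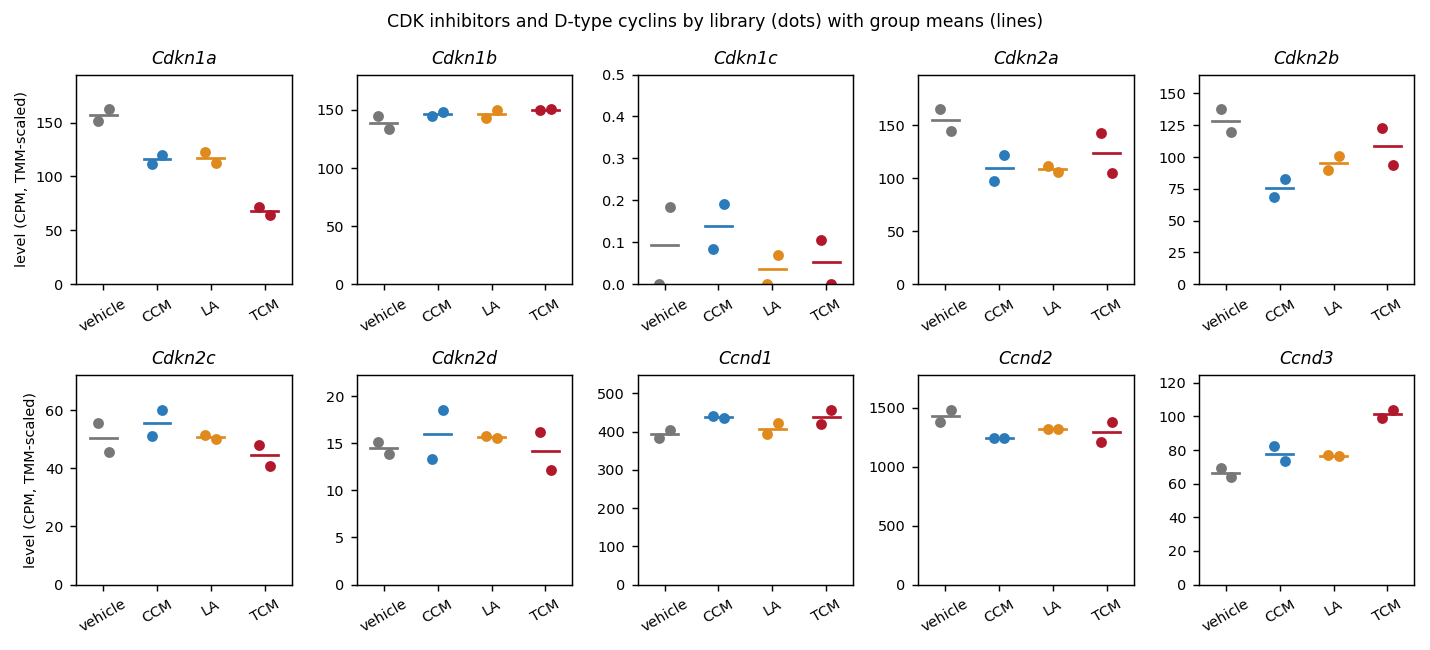
Level of each of the 10 genes in CPM (counts scaled to library size with TMM, vertical axes from 0, each gene on its own scale) in vehicle, CCM, LA and TCM, with dots for the 2 libraries and a line for their mean. Cdkn1a stood lowest in TCM, at 71.6 and 64.0 CPM, and Ccnd3 stood highest there, at 99.0 and 103.9 CPM, whereas Cdkn1b lay between 133 and 150.4 CPM in all 8 libraries.

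Cdkn1a encodes p21, the CIP/KIP inhibitor best known as a p53 target that halts the cell cycle. It had 152 and 162 CPM in vehicle, 111 and 120.3 CPM in CCM, 123 and 112 CPM in LA, and 71.6 and 64.0 CPM in TCM. Both TCM libraries were below all others and both vehicle libraries above all others, while CCM and LA overlapped. From a mean of 116 ± 6.44 CPM (SD, n = 2) in CCM, Cdkn1a fell by 41.5% in TCM, a log2 FC of -0.77 (SE 0.103, 95% interval -1.0 to -0.55, adjusted P = 0.000378 from edgeR). Against vehicle (157 ± 7.24 CPM) the log2 FC in TCM was -1.21 (SE 0.103, adjusted P = 3.47e-05), and against LA it was -0.79 (SE 0.103, adjusted P = 0.000434). The 3 comparisons share the TCM libraries. Each of these calls was kept in all 17 alternative fits of its comparison, over which the log2 FC against CCM lay between -0.91 and -0.69. The alternative fits, here and below, include replicate blocks added after the data were seen. These were the block with the CCM numbers crossed and, for comparisons of 2 groups, the block with only the libraries compared.

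With LA, Cdkn1a had a log2 FC of -0.42 against vehicle (SE 0.0996, 95% interval -0.64 to -0.20), with an adjusted P of 0.0552 that missed the threshold. CCM differed from vehicle by a similar size, -0.44 (SE 0.0995, adjusted P = 0.0577), and LA against CCM gave 0.02 (95% interval -0.20 to 0.24, adjusted P = 0.969). A test of TCM's effect less LA's effect gave -0.35 (SE 0.143, adjusted P = 0.155), so a larger effect of TCM than of LA on Cdkn1a was not shown by that test, although it passed in 2 of 15 alternative fits, without TCM library 1 (-0.43, adjusted P = 0.0389) and without TMM scaling (-0.50, adjusted P = 0.0472). The call between LA and vehicle was gained in 7 of 17 alternative fits, among them DESeq2 (adjusted P = 0.0419) and the fits without TCM library 1 or 2 (log2 FC -0.42 in each). Both blocks added after the data were seen were also among those 7. Cdkn1a lies at chr17:29090976-29100727 in GRCm38 and overlaps an antisense gene, AC167363.2, that was not in the count table.

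Cdkn1b encodes p27, the CIP/KIP inhibitor that holds CDK2 in check in resting cells. It had 145 and 133 CPM in vehicle, 145 and 148 CPM in CCM, 143 and 149.7 CPM in LA, and 149.8 and 150.4 CPM in TCM. All 8 libraries lay close together, and those of TCM were the highest. The log2 FC was 0.03 for TCM against CCM (95% interval -0.16 to 0.23, adjusted P = 0.821) and 0.07 for LA against vehicle (95% interval -0.12 to 0.27, adjusted P = 0.809). These intervals leave out a change of the size seen for Cdkn1a with TCM, though not a small change.

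Cdkn1c encodes p57, an imprinted CIP/KIP inhibitor known mostly from development. It had 0 and 2 counts in vehicle, 1 and 2 in CCM, 0 and 1 in LA, and 1 and 0 in TCM. All libraries were below 3 counts, so no difference was detectable at this depth and no fold change is given.

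Cdkn2a encodes both p16Ink4a, an INK4 inhibitor, and p19Arf, which stabilises p53, from 2 starts on chromosome 4 (chr4:89274471-89294653, minus strand), and gene counts pool both products. Its levels were 165 and 144 CPM in vehicle, 97.7 and 122 CPM in CCM, 112 and 106 CPM in LA, and 142 and 104.8 CPM in TCM. Vehicle was above every other library, and the TCM libraries were far apart. The log2 FC was -0.50 for LA against vehicle (SE 0.15, 95% interval -0.83 to -0.17, adjusted P = 0.119) and -0.49 for CCM against vehicle (SE 0.149, adjusted P = 0.15). Neither was called, and each was called in 6 of 17 alternative fits, among them those without TCM library 1 or 2. Both blocks added after the data were seen were also among the 6. TCM against CCM gave 0.17 (95% interval -0.16 to 0.50, adjusted P = 0.465), and TCM against vehicle gave -0.32 (adjusted P = 0.162), which passed without TCM library 1 (-0.56, adjusted P = 0.0121). TCM's effect less LA's effect on Cdkn2a was 0.67 (SE 0.212, adjusted P = 0.07). It passed in 4 of 15 alternative fits, which were DESeq2 (0.69, adjusted P = 0.0336), no filter on low counts (0.67, adjusted P = 0.00102), the fit without TCM library 2 (0.88, adjusted P = 0.00302) and a replicate block with the CCM numbers crossed (0.66, adjusted P = 0.0053).

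Cdkn2b encodes p15, an INK4 inhibitor known as a target of TGFβ, and lies beside Cdkn2a at chr4:89306299-89311039 on the same strand. It had 137 and 119.5 CPM in vehicle, 68.6 and 83.0 CPM in CCM, 90.1 and 100.6 CPM in LA, and 123 and 93.9 CPM in TCM. CCM was the lowest group with no overlap, and TCM overlapped both LA and vehicle. Cdkn2b was 43.2% higher in TCM (108 ± 20.6 CPM) than in CCM (75.8 ± 10.1 CPM), a log2 FC of 0.52 (SE 0.144, 95% interval 0.20 to 0.84, adjusted P = 0.0262 from edgeR). The same gene fell by 41% in CCM against vehicle (log2 FC -0.76, SE 0.144, adjusted P = 0.0343), where 1.3% of all genes were called. Against vehicle itself TCM did not pass (log2 FC -0.24, 95% interval -0.56 to 0.07, adjusted P = 0.268), except without TCM library 1 (-0.45, adjusted P = 0.0301). The higher value in TCM thus holds against the CCM control and was not seen against the vehicle control.

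LA gave a log2 FC of -0.43 for Cdkn2b against vehicle (SE 0.143, 95% interval -0.74 to -0.11, adjusted P = 0.177) and 0.33 against CCM (adjusted P = 0.444). The first was called in 5 of 17 alternative fits, and the second in none. Those 5 included the fits without TCM library 1 or 2 (log2 FC -0.42 in each). They also included the block with only the libraries compared, added after the data were seen. Between TCM's effect and LA's effect the difference was 0.94 on the log2 scale (SE 0.203, 95% interval 0.50 to 1.39, adjusted P = 0.0130 from edgeR), and it was the only member called in that test, where 10.4% of all genes were. The calls of Cdkn2b depended on single libraries. The call between TCM and CCM was lost without CCM library 1 (log2 FC 0.39, adjusted P = 0.223) and without TCM library 1 (log2 FC 0.31, adjusted P = 0.108), without TMM scaling (log2 FC 0.38, adjusted P = 0.0769), and with only the libraries compared (log2 FC 0.53, adjusted P = 0.0795). The call between CCM and vehicle was lost without either vehicle library, either CCM library or LA library 2 (log2 FC -0.90 to -0.63). The difference between effects was lost without library 1 of vehicle, CCM or LA (0.84, 0.81 and 0.87, adjusted P from 0.0541 to 0.0722).

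Cdkn2c and Cdkn2d encode p18 and p19Ink4d, the INK4 inhibitors linked most to differentiation. Cdkn2c had 55.5 and 45.6 CPM in vehicle, 50.9 and 60.1 CPM in CCM, 51.6 and 50.2 CPM in LA, and 47.9 and 40.9 CPM in TCM. Its log2 FC between TCM and CCM was -0.32 (95% interval -0.61 to -0.03, adjusted P = 0.113), with both TCM libraries below both CCM libraries. It passed in 2 of 17 alternative fits, without TCM library 1 (-0.44, adjusted P = 0.0371) and without TMM scaling (-0.46, adjusted P = 0.0303). Cdkn2d was the least abundant of the tested inhibitors in CPM, between 12.1 and 18.5, and its libraries overlapped between TCM and CCM (log2 FC -0.16, 95% interval -0.57 to 0.25, adjusted P = 0.588). The wide interval means that changes of about the size of the threshold could not be seen for Cdkn2d.

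Ccnd1 encodes cyclin D1, the D-type cyclin most responsive to growth factors. It had 383 and 405 CPM in vehicle, 440.3 and 436 CPM in CCM, 394 and 422 CPM in LA, and 421 and 457 CPM in TCM. Its log2 FC was 0.00 for TCM against CCM (95% interval -0.21 to 0.22, adjusted P = 0.985) and 0.05 for LA against vehicle (95% interval -0.16 to 0.26, adjusted P = 0.892). Ccnd1 shares exons on the opposite strand with LTO1 (122 to 217 counts), which is small beside its own 3330 to 5982 counts.

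Ccnd2 encodes cyclin D2 and was the most abundant member. It had 1381 and 1482 CPM in vehicle, 1241 and 1243 CPM in CCM, 1318 and 1317 CPM in LA, and 1212 and 1375 CPM in TCM. Vehicle was above every other library. No comparison was called, with log2 FC values of 0.06 for TCM against CCM (95% interval -0.17 to 0.29, adjusted P = 0.738), -0.12 for LA against vehicle (adjusted P = 0.702) and -0.21 for CCM against vehicle (adjusted P = 0.465).

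Ccnd3 encodes cyclin D3, the D-type cyclin that also persists in many differentiated cells. It had 69.0 and 63.8 CPM in vehicle, 82.6 and 73.2 CPM in CCM, 77.2 and 76.2 CPM in LA, and 99.0 and 103.9 CPM in TCM. Both TCM libraries were above all others, both vehicle libraries below all others, and the LA libraries lay within the CCM range. Against vehicle, Ccnd3 was 52.8% higher in TCM (log2 FC 0.61, SE 0.100, 95% interval 0.39 to 0.83, adjusted P = 0.00173), a call kept in 17 of 17 alternative fits. Against LA it was 32.2% higher (log2 FC 0.40, SE 0.0992, adjusted P = 0.0175), a call kept in 11 of 17 alternative fits. That call was lost without LA library 1, LA library 2 or TCM library 2 (log2 FC 0.37 to 0.41) and without TMM scaling (log2 FC 0.29, adjusted P = 0.0659). It was also lost with no filter on low counts (log2 FC 0.38, adjusted P = 0.0136) and with only the libraries compared (log2 FC 0.41, adjusted P = 0.0748).

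Against CCM, Ccnd3 passed the P value but not the fold threshold, with a log2 FC of 0.38 (SE 0.0990, 95% interval 0.16 to 0.60, adjusted P = 0.0190). It was called in 3 of 17 alternative fits, which were DESeq2 (0.39, adjusted P = 0.0238), its size factors in edgeR (0.39, adjusted P = 0.0171) and the fit without TCM library 1 (0.41, adjusted P = 0.00913), and over all 17 the log2 FC lay between 0.24 and 0.47. Without the fold threshold 3 of 9 members passed in that comparison (Cdkn1a, Cdkn2b and Ccnd3), where 21.3% of all genes did. LA against vehicle gave 0.21 for Ccnd3 (95% interval -0.01 to 0.43, adjusted P = 0.383), and TCM's effect less LA's effect gave 0.17 (adjusted P = 0.503). Ccnd3 shares exons with Bysl on the opposite strand, which had 326 to 600 counts beside 618 to 1080 for Ccnd3. Relative to the library totals Bysl was lowest in TCM, at 353 and 326 counts, where Ccnd3 was highest, and whether reads of one were counted for the other was not tested.

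**Figure D2:**
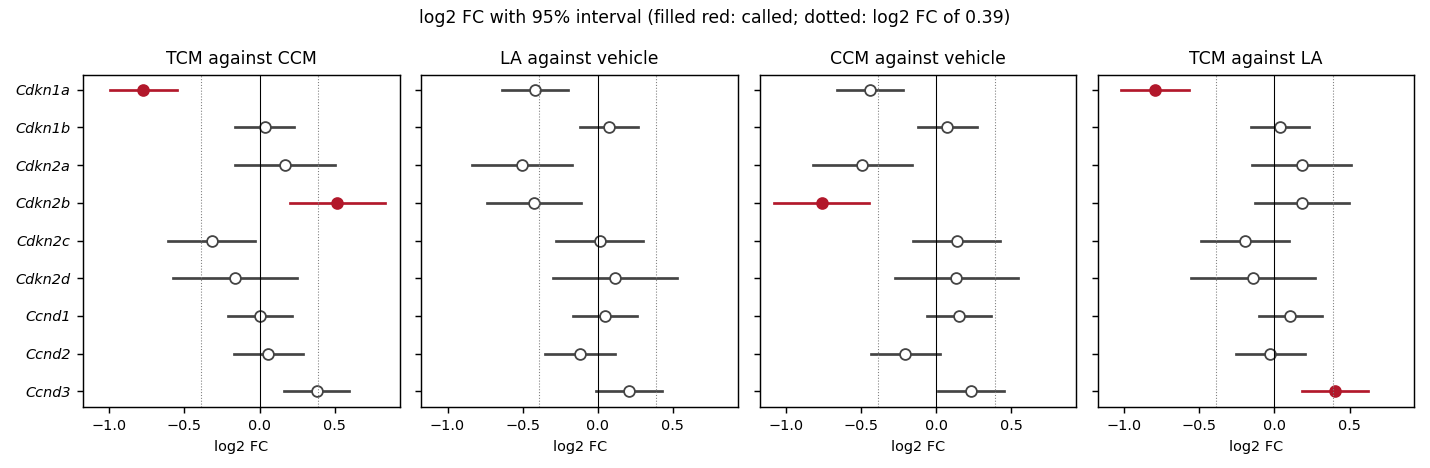
Log2 FC (horizontal axis) of the 9 tested genes in TCM against CCM, LA against vehicle, CCM against vehicle and TCM against LA, with bars for 95% intervals, filled red symbols for called genes and dotted lines at a log2 FC of 0.39 in either direction. Cdkn1a was called with TCM against CCM (-0.77) and against LA (-0.79), Cdkn2b was called in opposite directions with TCM against CCM (0.52) and CCM against vehicle (-0.76), and no gene was called with LA against vehicle.

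The comparison of TCM with vehicle called 2 of 9 members (Cdkn1a lower and Ccnd3 higher), where 17.5% of all genes were called, and TCM with LA called the same 2, where 16.1% were. LA with CCM called none (0.626% of all genes), and DESeq2 called none there. Of the members, 1 (Cdkn2b) had an unadjusted edgeR P value under 0.05 there, a looser cut whose share of all genes is not given here. Groups of 2 libraries did not overlap for 5 of 9 members between TCM and CCM and for 6 of 9 between LA and vehicle, where 58.3% and 48.0% of all genes did not. A gap between groups alone was thus common among all genes. Scaling without TMM factors moved the median over all genes, in TCM against CCM, by -0.14 on the log2 scale, and the small positive values of Cdkn1b, Ccnd1 and Ccnd2 became -0.11, -0.14 and -0.08, none of them called.

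Levels of different genes were compared per kilobase of exon (RPKM on TMM-scaled libraries, exon length from GENCODE M21). Ccnd2 was highest in each condition, with means from 132 RPKM in CCM to 152 RPKM in vehicle. Cdkn2a came next (93.0 RPKM in LA to 132 RPKM in vehicle), although its libraries overlapped those of Ccnd1 in CCM and TCM. Cdkn2b and Ccnd1 followed, in that order in vehicle (92.4 and 83.7 RPKM, ranges overlapping) and in the reverse order in CCM (54.5 and 93.1 RPKM), LA and TCM. Ccnd2, Ccnd1 and the neighbouring Cdkn2a and Cdkn2b thus held the 4 highest places in all conditions.

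Cdkn1a and Cdkn1b changed places per length. In vehicle Cdkn1a (44.2 RPKM) was above Cdkn1b (30.6 RPKM), in CCM and LA their ranges overlapped, and in TCM Cdkn1a (19.1 RPKM) was below Cdkn1b (33.0 RPKM). Cdkn2c held 16.5 to 20.7 RPKM. Ccnd3 was the lowest tested member per length in vehicle (7.57 RPKM), CCM (8.88 RPKM, range overlapping that of Cdkn2d) and LA (8.74 RPKM). It stood above Cdkn2d in TCM (11.6 against 9.0 RPKM). Its place rests on a joined exon length of 8775 bases over 21 transcripts, against 1574 bases for Cdkn2d. In CPM, Ccnd3 was above Cdkn2d in each library (means in vehicle of 66.4 and 14.5 CPM). Cdkn1c was last, at or below 0.0676 RPKM.

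**Figure D3:**
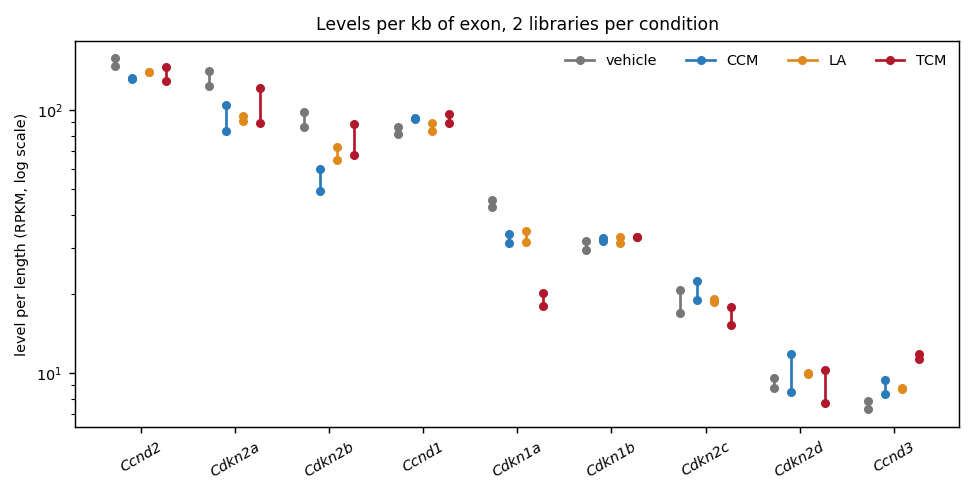
Level per kilobase of exon (RPKM, log scale on the vertical axis) of the 9 tested genes, with points for the 2 libraries of each condition joined by a line and colors for vehicle, CCM, LA and TCM. Ccnd2 stood highest in each condition, and Cdkn1a moved from above Cdkn1b in vehicle (44.2 against 30.6 RPKM) to below it in TCM (19.1 against 33.0 RPKM).

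Among all tested genes, the log2 CPM of Cdkn1a over the 8 libraries was most alike to that of Mdm2 (Pearson's r = 0.992), which encodes the ubiquitin ligase that degrades p53, and of Map6 (r = 0.990), which encodes a microtubule-stabilising protein. Mdm2 had 102 and 105.0 CPM in vehicle, 88.6 and 90.1 CPM in CCM, 93.9 and 89.9 CPM in LA, and 67.7 and 67.8 CPM in TCM. It kept the order of Cdkn1a with a smaller drop, a log2 FC of -0.40 for TCM against CCM (SE 0.0894, adjusted P = 0.00892). For Cdkn2b the nearest were Snx25 (r = 0.968), a sorting nexin, and Cd24a (r = 0.951), a small surface glycoprotein. These values describe 8 libraries in 4 groups that share their conditions, and they were the highest of 12136 genes compared with each member.

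Genes around the members were taken from 9 lists, whose counts are read against the shares of all genes called lower (10.2%) or higher (8.83%) in TCM against CCM and called in either direction in LA (2.55%) or CCM (1.3%) against vehicle. The lists were written with earlier results of these data known, so their counts are a description and not an independent test. Of 20 p53 targets, 19 were tested, and 11 were called lower in TCM than in CCM and 0 higher (median log2 FC -0.40, against 0.00 over all genes). The other 8 were not called. Among these 8, Ccng1, the most abundant gene of the list, had a higher mean in TCM (825 ± 1.23 CPM) than in CCM (682 ± 15.9 CPM), with 823 ± 36.8 CPM in vehicle. The lower genes included Trp53inp1, which promotes p53-dependent cell death and fell from 174 ± 2.90 to 95.7 ± 12.0 CPM (log2 FC -0.86, adjusted P = 0.000226), and Sesn2, a stress-induced regulator of mTORC1, which fell from 111 ± 2.75 to 51.4 ± 7.95 CPM (log2 FC -1.12, adjusted P = 0.000313). Pmaip1, Bbc3, Eda2r, Plk2, Aen, Sesn1, Phlda3 and Trp53, the p53 gene itself and a member of the list, were also called lower. Trp53 had 77.7 and 77.9 CPM in vehicle, 81.6 and 79.8 CPM in CCM, 79.0 and 73.4 CPM in LA, and 58.4 and 64.4 CPM in TCM.

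No p53 target was called between LA and vehicle (median -0.18). In the test of TCM's effect less LA's effect 4 of 19 (Plk2, Trp53inp1, Sesn2 and Pmaip1) were called, where 10.4% of all genes were. Summed over the list, levels were 2738 and 2774 CPM in vehicle, 2341 and 2425 CPM in CCM, 2605 and 2446 CPM in LA, and 2022 and 1996 CPM in TCM. The order of the groups was thus the same as for Cdkn1a at both ends, with CCM and LA in between. Whether that order follows p53 activity in this p53 ER/ER line was not tested. The summed level of a list is governed by its abundant genes.

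The 20 proliferation markers, genes of DNA replication and mitosis, followed another order. Their sum was 1448 and 1373 CPM in vehicle, 2148 and 2074 CPM in CCM, 2189 and 1995 CPM in LA, and 1056 and 1088 CPM in TCM. Between TCM and CCM, 19 were called lower and 0 higher (median -1.13). Between LA and vehicle 14 were called higher and 0 lower (median 0.58), with the same number between CCM and vehicle (median 0.59). Between TCM and vehicle, 13 were called lower and 0 higher (median -0.52), where 17.5% of all genes were called in either direction. None was called between LA and CCM. In TCM therefore the mRNA of both Cdkn1a, an inhibitor of the cycle, and the proliferation markers was lower than in CCM. Mki67, the gene for Ki67, had means of 120 CPM in vehicle, 211 CPM in LA, 186 CPM in CCM and 78.8 CPM in TCM. The paper reports no change of FRC proliferation with LA or TCM by Ki67 staining, which measures protein. The mRNA values given here differ from that result, and the reason was not tested. Whether the share of cycling cells moves with the level of any member was not tested.

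**Figure D4:**
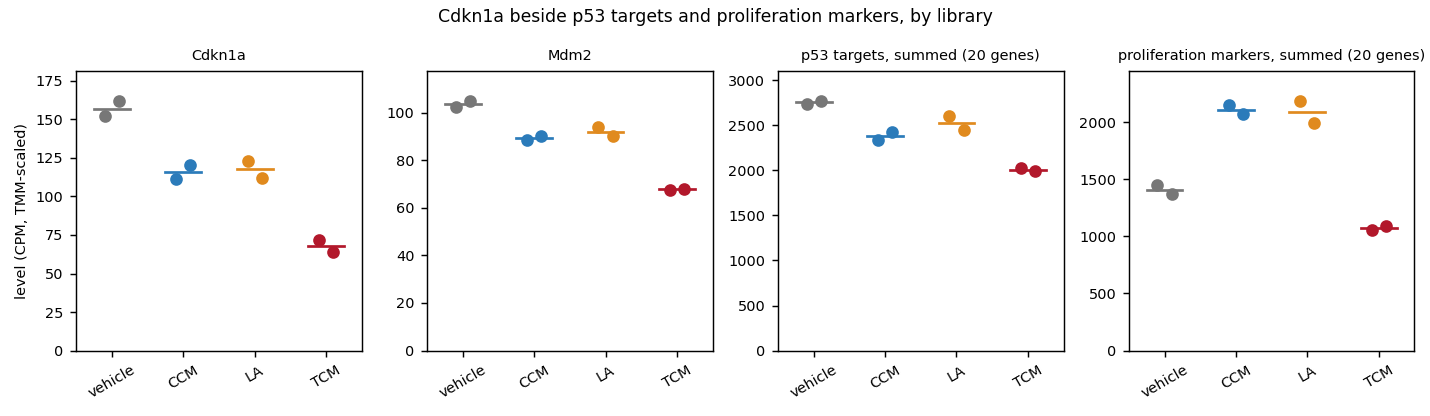
Level in CPM (TMM-scaled, vertical axes from 0) of Cdkn1a, of Mdm2, of 20 p53 targets summed and of 20 proliferation markers summed, with dots for the 2 libraries of each condition and lines for their means. Cdkn1a, Mdm2 and the p53 targets were highest in vehicle and lowest in TCM, whereas the proliferation markers were lowest in TCM (1056 and 1088 CPM) and highest in CCM and LA.

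Of the CDKs that the members bind, Cdk4 and Cdk6, the partners of D-type cyclins, were not called. Cdk4 had a log2 FC of -0.02 for TCM against CCM (adjusted P = 0.908) and 0.01 for LA against vehicle (adjusted P = 0.986), at means of 342 to 356 CPM. Cdk6 had 0.30 (adjusted P = 0.224) and -0.03 (adjusted P = 0.973). Cdk2, the main target of p21 and p27, was called higher in CCM than in vehicle (54.3 ± 1.85 against 34.6 ± 4.31 CPM) and lower in TCM (28.8 ± 1.79 CPM) than in CCM (log2 FC -0.92, SE 0.135, adjusted P = 0.000741). Its partner Ccne2 fell with it in TCM against CCM (log2 FC -0.86, adjusted P = 0.00157), while Ccne1 did not pass (-0.31, adjusted P = 0.172). Neither Cdk2 nor Ccne2 was called between TCM and vehicle.

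Over the whole list of 12 CDK partners, 6 were called lower in TCM than in CCM and 0 higher (median -0.59). Ccna2, Ccnb1 and Cdk1 are also among the proliferation markers, so these lists share calls. The steepest were the mitotic cyclins Ccna2 (log2 FC -1.41, adjusted P = 1.9e-05) and Ccnb1 (-1.53, adjusted P = 2.29e-05). Between LA and vehicle, 4 were called higher (Cdk1, Ccnb2, Ccna2 and Ccnb1, median 0.19), as were 4 between CCM and vehicle (median 0.43). Between TCM and vehicle, 3 were called lower (Ccnb1, Ccna2 and Ccnb2, median -0.13) and 0 higher. Cdk1 had 73.3 ± 2.16 CPM in vehicle, 117 ± 9.15 CPM in LA, 113 ± 0.197 CPM in CCM and 60.2 ± 5.94 CPM in TCM. The mitotic partners, more than the partners of D-type cyclins, thus carried the calls, and no test compared these kinds of partner.

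Of 13 pocket proteins and E2F factors, 3 were called lower in TCM than in CCM (E2f7, E2f8 and E2f2) and 0 higher (median -0.16). E2f7 and E2f8, the atypical repressors that E2F induces late in G1, had log2 FC values of -1.36 (adjusted P = 0.000202) and -1.40 (adjusted P = 0.000692). Rb1, the retinoblastoma gene, had 35.2 ± 0.667 CPM in vehicle, 26.9 ± 1.61 CPM in CCM, 28.9 ± 0.0932 CPM in LA and 21 ± 0.9 CPM in TCM. Its log2 FC between TCM and CCM was -0.36 (SE 0.113, adjusted P = 0.0413), under the fold threshold. Between LA and vehicle only Rbl1, the p107 pocket protein, was called (log2 FC 0.62, adjusted P = 0.0239), and between CCM and vehicle none was. Between TCM and vehicle Rb1 and E2f7 were called lower in TCM, and E2f8 and E2f2 were not called.

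Of 13 genes for the turnover of p27 and D-type cyclins, 2 were called lower in TCM than in CCM and 0 higher (median 0.14), a share near that of all genes, and none was called between LA and vehicle or CCM and vehicle. Skp2, the F-box protein that targets p27 for degradation, fell from 38.1 ± 2.14 to 21.2 ± 3.18 CPM (a log2 FC of -0.85 with SE 0.129, adjusted P = 0.000940). It had 26.4 ± 2.15 CPM in vehicle, and between TCM and vehicle only Cul1 of this list was called, lower in TCM. Cul1, the scaffold of the same ubiquitin ligase, fell from 233 ± 5.64 to 156 ± 21.2 CPM (log2 FC -0.58, adjusted P = 0.00275). Cdkn1b mRNA, given above, had no call beside these, and protein was not measured in these data.

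Of 16 repressors and activators of the Cdkn2a locus, 15 were tested, and Ezh2, Id1 and Id2 were called lower in TCM than in CCM with 0 higher (median -0.14). Ezh2, the Polycomb methyltransferase, had a log2 FC of -0.75 (adjusted P = 0.000981), and Id1, an inhibitor of bHLH factors, had -0.67 (adjusted P = 0.00435). Between TCM and vehicle only Id1 of this list was called, lower in TCM. None of the 15 was called between LA and vehicle or CCM and vehicle. Of 12 TGFβ and SMAD genes, 3 were called lower in TCM than in CCM (Tgfb3, Tgfbr2 and Tgfb1) and 0 higher (median -0.07). Tgfb3 fell from 331 ± 1.25 to 118 ± 3.15 CPM (log2 FC -1.49, adjusted P = 0.000133). Tgfbr2, the type II receptor, was lower with TCM (log2 FC -0.77, adjusted P = 0.00173) and with LA (-0.83, adjusted P = 0.00826).

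Of 14 FOXO factors and targets, 12 were tested, and 3 were called higher (Bnip3, Cited2 and Irs2) and 2 lower (Sesn3 and Bcl6) in TCM than in CCM (median 0.18). Bnip3, a mitophagy receptor, rose from 21.3 ± 0.681 to 67.3 ± 17.5 CPM (log2 FC 1.66, adjusted P = 5.84e-05). Between LA and vehicle only Txnip, which restrains glucose uptake, was called (log2 FC 1.22, adjusted P = 0.000216). Of 12 mitogen-response factors, 1 was higher and 3 were lower in TCM than in CCM (median -0.29). Fosl2, an AP-1 subunit, had a log2 FC of 1.13 (adjusted P = 0.000269), Jun had -0.67 (adjusted P = 0.00309) and Egr1 -1.31 (adjusted P = 0.0150). Egr1 varied most between libraries in LA (294 ± 142 CPM) and vehicle (238 ± 103 CPM), and none of the 12 was called between LA and vehicle or CCM and vehicle.

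**Figure D5:**
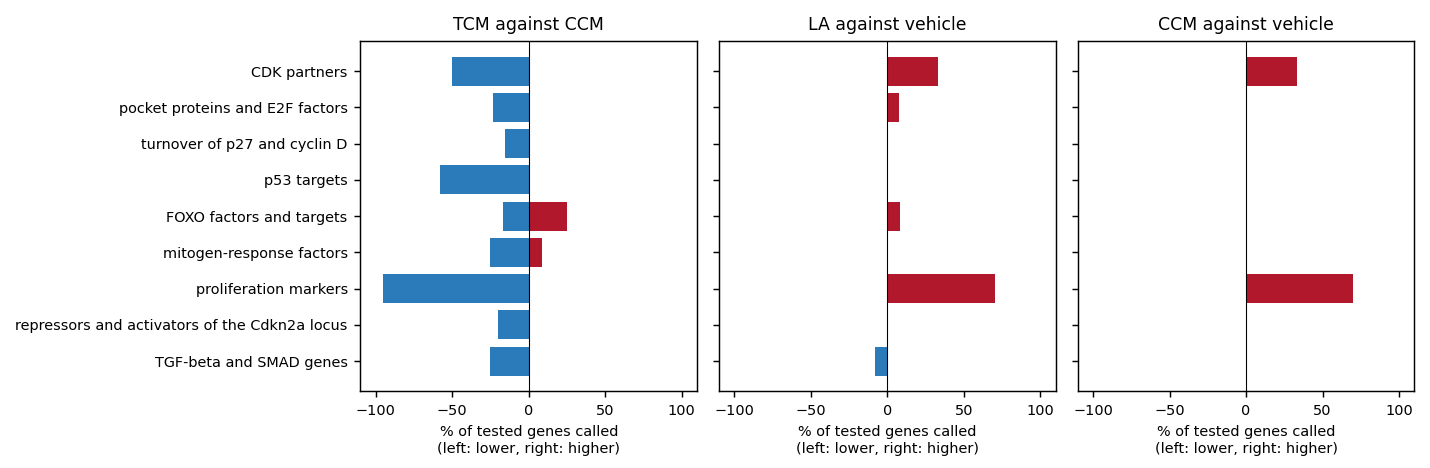
Percent of the tested genes of each of 9 lists called lower (bars to the left) or higher (bars to the right) in TCM against CCM, LA against vehicle and CCM against vehicle. Proliferation markers had 19 of 20 genes lower in TCM than in CCM and 14 of 20 higher in LA than in vehicle. Of the p53 targets, 11 of 19 were lower in TCM than in CCM and none was called between LA and vehicle. The lists were written with earlier results of these data known. Ccna2, Ccnb1 and Cdk1 are in both the CDK partner and proliferation marker lists.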

How the data were processed

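Poly(A) directional libraries were sequenced, aligned to GRCm38 (Ensembl release 100) with STAR 2.7.0a and counted with featureCounts (Subread 2.0.1), per the submitters' processing notes and the study's methods. The strand setting of counting is not given in the sources used here, so reads of a gene and its antisense partner cannot be told apart. The authors deposited whole-number counts per gene with no normalization, and their own tests used DESeq2 1.32.0. A second deposited table, named as normalized, held the same raw counts for 12137 genes (100% of values equal). No columns were left unused (0), and no rows lacked a gene name (0).

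A minimum of 10 counts in 3 or more libraries left 12137 genes, which were tested in R 4.3.3 with edgeR 4.0.16 (TMM factors 0.938 to 1.04, estimateDisp, glmQLFit and glmQLFTest, robust), with all 8 libraries in the fit and a mean per condition. Benjamini-Hochberg adjustment covered all tested genes. The biological coefficient of variation was 0.0903. SE was the size of the log2 FC divided by the square root of F, and 95% intervals used the t distribution with the moderated degrees of freedom. The study describes 2 biological replicates of a cell line, and P values measure the spread between these. Libraries of a group differed by more than sampling noise (chi-square per degree of freedom 3.31 to 20.6, highest in TCM). Floors of 3 counts cover counting error only. Scripts were tested on simulated data.

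Positions and exon lengths came from GENCODE M21 on GRCm38, not the annotation counted on, and exon length joined all isoforms, which lowers RPKM for genes with long rare exons. Some listed genes, such as Cdk2 and Cdk4, also share exons with another gene. All members were named, and from each list the 2 called genes ranked first by adjusted P, per direction, in TCM against CCM and in LA against vehicle, together with the direct partners Cdk4, Cdk6, Cdk2, Ccne1, Ccne2 and Rb1 and the 2 genes most correlated with each called member. Trp53 and Irs2 and other list genes were named outside this rule, after their values were seen. Members and lists were chosen with earlier results of these data known. Alternatives were DESeq2 1.42.0 and its size factors, no TMM factors, other filters, fold threshold and libraries, replicate block and leaving out each library.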

Additional observations from a re-analysis of the deposited data

Results flagged for a closer look

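Named genes are listed here where the change from CCM to TCM differed from the change from vehicle to LA by edgeR's test of that difference (adjusted P value under 0.05 and a log2 value beyond 0.39), each value being the TCM effect less the LA effect on the log2 scale. Among the members only Cdkn2b met this, at 0.94 (adjusted P = 0.0130), where it was higher with TCM than with CCM and the LA libraries stood below the vehicle libraries. The CCM libraries, the control of the TCM effect, were the lowest for Cdkn2b, and without CCM library 1 the difference was 0.81 (adjusted P = 0.0722).

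Among CDK partners and proliferation markers the difference was negative for all that met it, at -2.0 for Ccna2, -2.12 for Ccnb1, -1.98 for Ccnb2, -1.57 for Cdk1, -2.20 for Plk1, -1.26 for Mcm3, -1.19 for Cdk2 and -1.02 for Ccne2. Ccna2, Ccnb1, Ccnb2, Cdk1, Plk1 and Mcm3 were called higher with LA than with vehicle and lower with TCM than with CCM. These effects have different controls, and all of these genes but Ccnb1 were also called higher in CCM than in vehicle. Between TCM and vehicle, Ccna2, Ccnb1, Ccnb2 and Plk1 were called lower, and Cdk1 and Mcm3 were not called. Of the E2F and pocket protein genes, E2f7 had -1.59, E2f8 -1.75 and Rbl1 -1.0. Of the genes around the inhibitors, Skp2 had -1.34, Ezh2 -1.04, Id1 -0.89 and Tgfb3 -1.16. Of the p53 targets, Trp53inp1 had -0.66 and Sesn2 -0.85. Bnip3 (1.67), Cited2 (1.19) and Fosl2 (1.57) were higher under TCM than under LA relative to their controls, and Txnip (-1.08), Jun (-0.72) and Egr1 (-1.61) were lower.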

How the results depend on the processing

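Of 1053 alternative values of the members' log2 FC, 991 kept their side of the threshold (47 of them uncalled values that changed sign), 44 gained a call, 18 lost one and none reversed a call. Members called between TCM and CCM (2) became 1 with only the libraries compared or a fold threshold of 0.68, and 3 with DESeq2, its size factors in edgeR or no fold threshold. Between LA and vehicle (0) they became 1 with DESeq2 and 3 with no filter or only the libraries compared. For the difference of effects (1) they became 2 with no TMM factors, DESeq2 or no filter. For CCM against vehicle (1) they became 2 with DESeq2 and 3 with no filter or only the libraries compared. For TCM against vehicle (2) they became 1 at 0.68, and for TCM against LA (2) they became 1 with no TMM factors, no filter, only the libraries compared or 0.68. All genes called numbered 2314 for TCM against CCM and 1331 at 0.68, and 310 for LA against vehicle, 656 with no filter and 176 at 0.68. For the other comparisons the all-gene counts under the alternative fits are not given here, so changes in their member counts cannot be read against them. The causes were not tested.

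Leaving out each library gave 1 to 3 members for TCM against CCM, 0 to 3 for LA against vehicle, 0 to 2 for the difference, 0 to 3 for CCM against vehicle, 2 to 4 for TCM against vehicle and 1 to 2 for TCM against LA, and 1195 to 2864 and 57 to 617 genes for the first pair. Where a group keeps 1 library, it is assumed to vary like the others.

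With replicate numbers as a block, 2 members and 2367 genes were called for TCM against CCM and 0 and 356 for LA against vehicle. The sources used here tie the numbers to no shared batch or day, and the data do not settle whether they pair the libraries: same-numbered libraries correlated in their deviations at 0.353 (vehicle and LA), 0.112 (vehicle and TCM), 0.106 (LA and TCM), -0.0406 (vehicle and CCM), -0.0813 (CCM and LA) and -0.242 (CCM and TCM), so the 3 values among vehicle, LA and TCM were above 0.1 and those with CCM below 0. After this was seen, the CCM numbers were crossed in the block, giving 2 members and 2675 genes for TCM against CCM, 2 and 596 for LA against vehicle, 2 for the difference and 3 for CCM against vehicle. A block with only the libraries compared, also added after seeing the data, called 3 members (Cdkn1a, Cdkn2a and Cdkn2b) and 1117 genes for LA against vehicle and 3 members for CCM against vehicle, with 4 libraries in each fit. Depth limited Cdkn1c, which had at most 2 counts in a library.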
